A study of Homo sapiens with 6 samples.

Results

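Human chromosome 19 carries a large share of the genome's ZNF genes, and 214 of the 18936 genes in the deposited count table were protein-coding genes with a symbol of the form ZNF followed by digits and a position on chromosome 19. The rule that chose them used type, symbol and position, with no expression value. Every gene of the table had at least 10 counts in total, however, and the set was chosen with earlier results of these data known. The table compared UC3DDP with UC3, each with 3 libraries of total RNA. UC3DDP (UC3-R in the study) is a subline of UM-UC-3, a human bladder carcinoma cell line. It was selected with rising doses of gemcitabine and cisplatin in repeated cycles, each followed by recovery in drug-free medium. The study found it resistant to both drugs. UC3 is the parental line, which did not have that selection. UC3DDP is 1 selected population. The study states in general that experiments were repeated independently, but neither it nor the labels tie each library to a culture of its own, so every p-value rests on differences among these libraries, and these may be partly technical. The design also cannot tell the drugs apart from the selection or from drift in culture. Some labels were at odds with the rest of the record: the series text speaks of T24, another bladder carcinoma line, the extraction text of retinas, and the processing notes of a mouse genome build, whereas the gene identifiers and positions in the table were human.

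C2H2 zinc finger proteins bind DNA through tandem fingers, each a short fold held by a zinc ion between pairs of cysteines and histidines. Most ZNF genes of chromosome 19 also encode a KRAB box, a domain that recruits the corepressor TRIM28 (KAP1), which in turn brings the H3K9 methyltransferase SETDB1 and the heterochromatin protein HP1. Many of these proteins bind and silence transposable elements, and the genes lie in clusters that arose by tandem duplication, so that neighbours share sequence and promoter structure.

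Libraries held 17254683, 16938122 and 16757610 counts in UC3DDP and 20118592, 19467228 and 20803970 counts in UC3. Replicates of UC3DDP differed more from each other than those of UC3: the chi-square of counts over its degrees of freedom was between 3.43 and 21.8 for pairs of UC3DDP libraries, against 1.44 to 1.81 for pairs of UC3 libraries, and UC3DDP replicate 1 stood furthest from the rest. Of 13 epithelial and urothelial markers 11 were in the table, with a summed level of 348 to 443 CPM (counts scaled to a common library size, with TMM factors) in UC3DDP and 224 to 232 CPM in UC3. KRT8, KRT18 and PPARG reached 10 CPM. The fibroblast list (6 of 6 in the table) summed to 12.3 to 25.3 CPM in UC3DDP and 5.18 to 5.85 CPM in UC3, the endothelial list (4 of 4) to 2.31 to 8.07 CPM in UC3DDP and 0.103 to 0.496 CPM in UC3, and the leukocyte list (1 of 5) to at most 0.474 CPM in any library. The part of these differences in the results on ZNF genes was not tested, and in bulk RNA fewer cells of a type and less RNA per cell cannot be told apart.

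The ZNF genes of chromosome 19 were lower in UC3DDP as a group, but not in every region of the chromosome. Their summed level was 1825, 2157 and 2039 CPM in the UC3DDP libraries and 2728, 2706 and 2696 CPM in the UC3 libraries, which is 2007 ± 168 CPM in UC3DDP against 2710 ± 16.6 CPM in UC3 (SD, n = 3 each), a ratio of 0.741. No UC3DDP library reached the level of a UC3 library. The members thus took 0.178%, 0.219% and 0.206% of all counts in UC3DDP, against 0.274%, 0.269% and 0.270% in UC3. At least 1 CPM was reached by 170, 188 and 183 members in the UC3DDP libraries and by 194, 196 and 197 members in the UC3 libraries.

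Of the 214 members, 208 passed the filter on low counts and were tested with edgeR's quasi-likelihood test across all 15120 genes that passed it. A gene was called when its Benjamini-Hochberg adjusted p was under 0.05 and its log2 fold change (UC3DDP over UC3) was beyond 1 in either direction. Among the tested members 95 fell in UC3DDP (45.7%) and 26 rose (12.5%). Over all tested genes 23.1% were called lower and 17.6% were called higher, 40.7% in all, so the share of members that fell was above the background and the share that rose was below it. The median log2 fold change was -0.76 over the members and 0.02 over all tested genes. With ZNF257, whose UC3DDP libraries were all at 0 counts, placed at its bound the median of the members was again -0.76. This had to be so, since 1 gene that stays far below a median does not move it. Protein-coding ZNF genes on other chromosomes were close to the members, with 96 of 222 tested genes lower, 15 higher and a median of -0.66. Protein-coding genes of chromosome 19 that are not ZNF genes lay on the other side, with 43 of 697 tested lower, 181 higher and a median of 0.47.

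The libraries of the 2 lines did not overlap at 175 of the 208 tested members. The UC3DDP libraries were all below the UC3 libraries at 127 members and all above them at 48 members, and the lines overlapped at 33. Among all tested genes 41.6% had every UC3DDP library below UC3 and 42.1% had every UC3DDP library above it. The lines overlapped at 2464 of these 15120 genes, so lack of overlap in itself was about as common over the table as among the members. The direction of the group was in all 3 UC3DDP libraries: the median member was -1.04, -0.53 and -0.69 on the log2 scale relative to the mean of the UC3 libraries (with 0.1 CPM added), while the UC3 libraries themselves were at 0.01, -0.01 and -0.00. UC3DDP replicate 1 was the lowest, and without that library 83 of 210 tested members were called lower and 27 higher. In the same UC3DDP libraries the median of the other coding genes of chromosome 19 was 0.57, 0.39 and 0.44.

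The base composition of transcripts moved with these differences across the whole table. The counts of calls below are therefore followed by those from a fit with an offset for GC content and length (the adjusted fit). GC content was that of a gene's longest transcript, and length was its exon length. ZNF transcripts of chromosome 19 are AT-rich: the median GC content was 42.4% over the members (33.9% to 70.9%), 44.9% over ZNF genes elsewhere, 60.2% over the other coding genes of chromosome 19 and 47.7% over all genes of the table. Tested genes were split by GC into 10 groups of equal size. Over all genes the group with the lowest GC (26.0% to 38.1%) was at a median of -1.44 on the log2 scale, and the group with the highest (61.0% to 85.5%) was at 0.77. The 30 members in the lowest group had a median of -2.44, with 27 called lower, and the 12 members in the highest group had a median of 1.17, with 7 called higher.

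In the adjusted fit 49 members were called lower (23.6%) and 25 higher (12%), and their median was -0.09. The background moved too, to 13.2% of all genes lower and 14.3% higher, 27.4% in all. The same genes were called by both fits in 48 cases among those lower and in 11 cases among those higher, and 0 members were called in opposite directions by the 2 fits. ZNF genes elsewhere had 43 lower and 5 higher with a median of -0.33 in the adjusted fit, and the other coding genes of chromosome 19 had 84 lower and 71 higher with a median of -0.19. Whether the GC trend arose in the cells or in library preparation was not tested, and both fits are given for that reason.

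**Figure D1:**
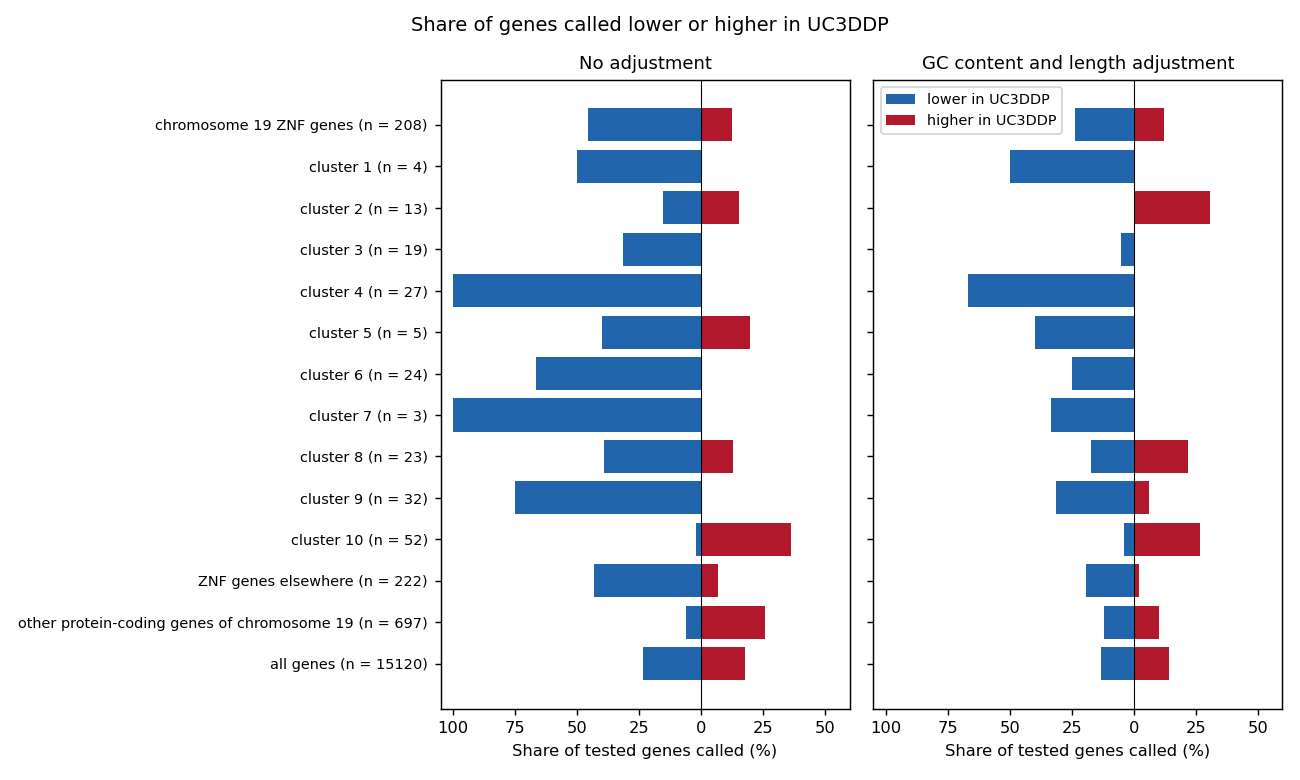
Share of tested genes called lower (left of 0) and higher (right of 0) in UC3DDP, in percent of the tested genes of each set, for the ZNF genes of chromosome 19, their clusters in chromosome order and the comparison sets. Members had 45.7% lower and 12.5% higher, against 23.1% and 17.6% over all tested genes.

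**Figure D2:**
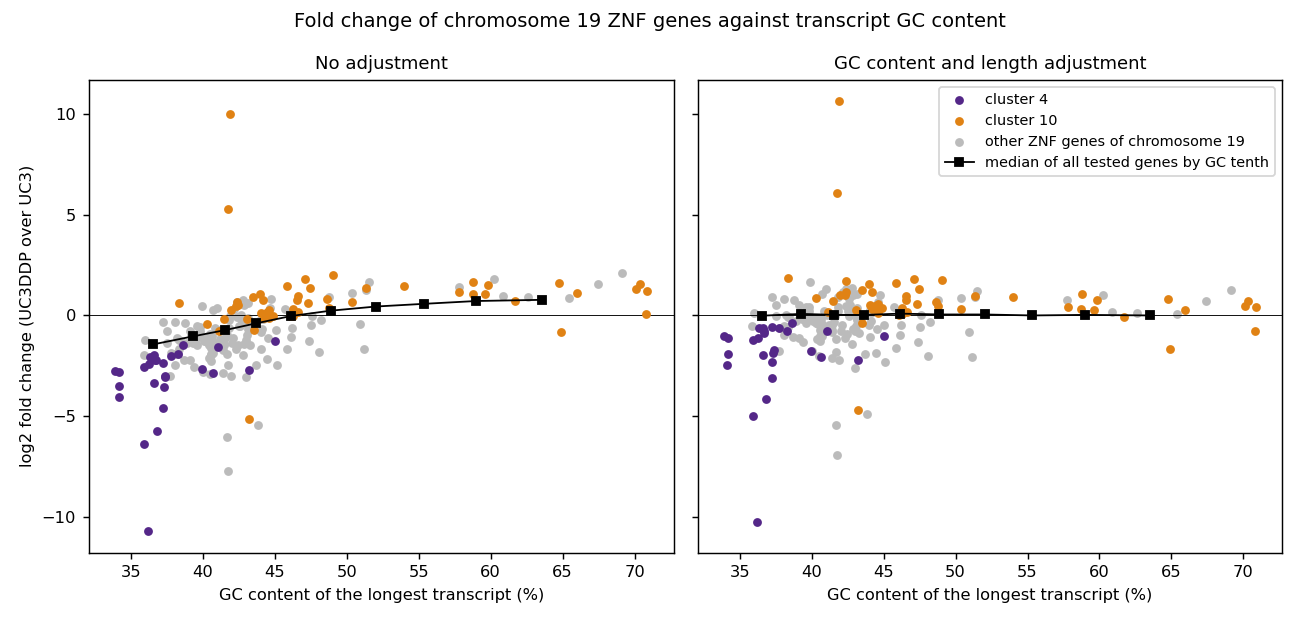
Log2 fold change (UC3DDP over UC3) of each tested member against the GC content of its longest transcript in percent, before (left) and after (right) the adjustment, with the genes of clusters 4 and 10 coloured and the medians of all tested genes in 10 groups of GC as black squares. The squares run between -1.44 and 0.77 before the adjustment and lie between -0.02 and 0.09 after it.

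Along the chromosome the members formed 10 clusters of at least 3 genes with gaps of less than 1 Mb between neighbours, numbered from the short-arm end in the plots, and 7 genes were left scattered between them. The median log2 fold change was below 0 in 8 of the 10 clusters, and in 6 of them in the adjusted fit. It lay between -2.74, in cluster 4 at 19.7 to 24.1 Mb next to the centromere, and 0.67, in cluster 10 at 55.5 to 58.5 Mb at the end of the long arm. These 2 clusters, of 27 and 53 genes, stand at the ends of the range and are described first.

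**Figure D3:**
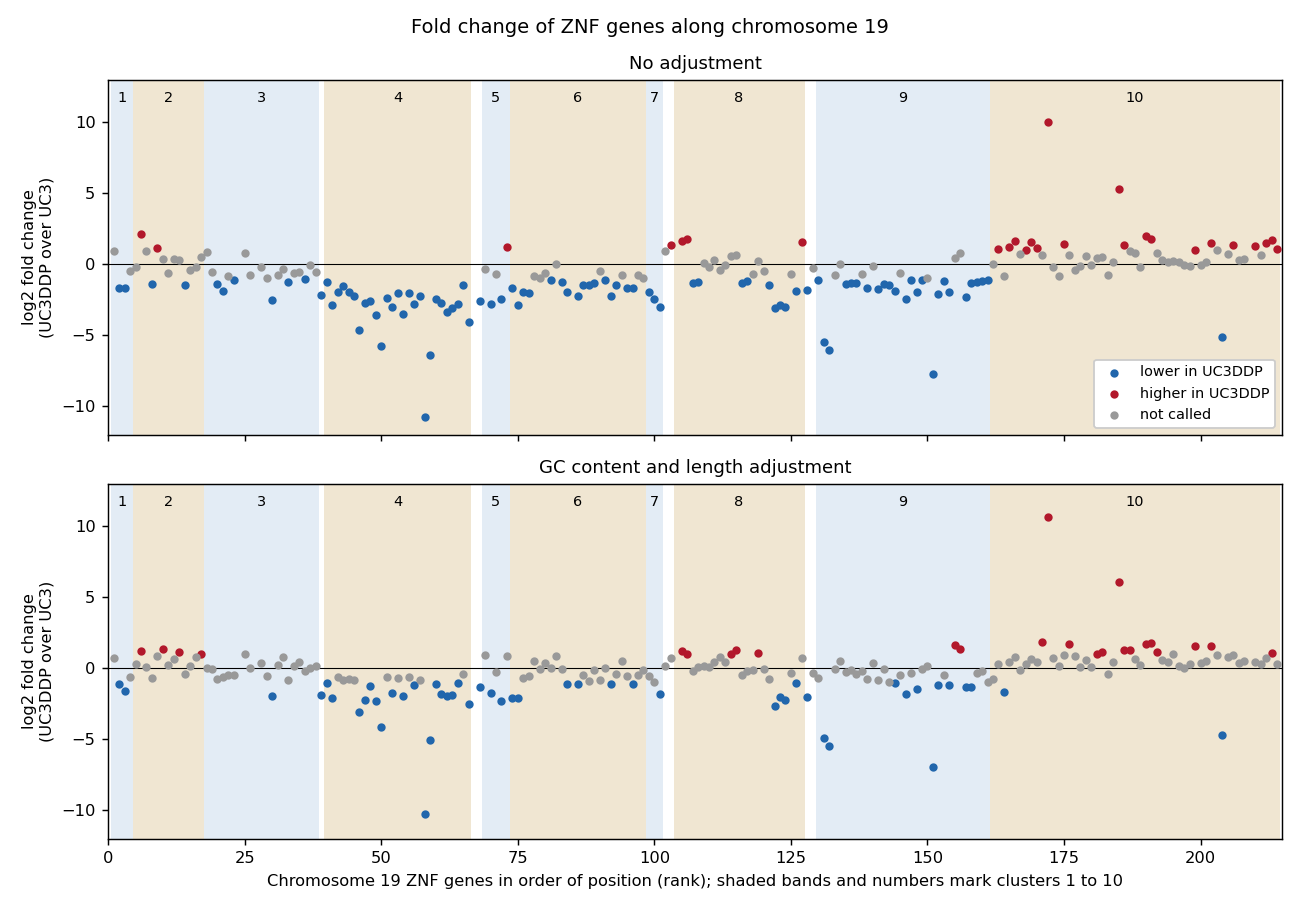
Log2 fold change (UC3DDP over UC3) of the tested members in their order along chromosome 19, before (top) and after (bottom) the adjustment, with called genes coloured by direction and the clusters as shaded bands. Before it all 27 genes of the pericentromeric cluster 4 lie at -1.26 or below, and 19 of the 52 tested genes of the distal cluster 10 were called higher.

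**Figure D4:**
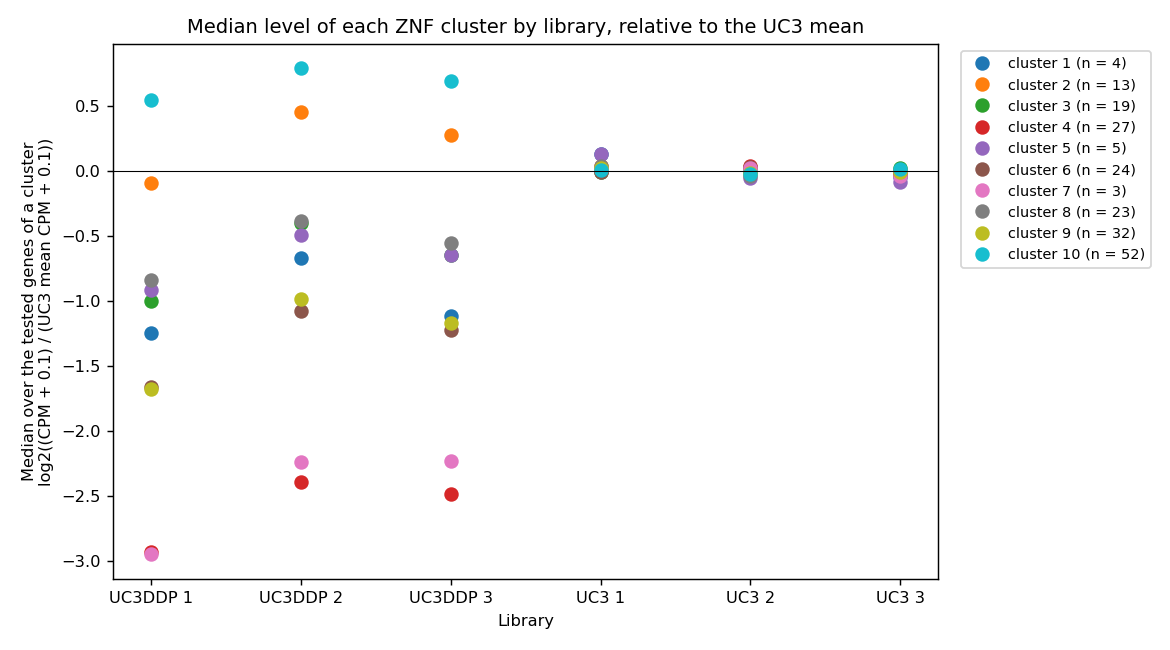
Median over the members of each cluster of the log2 ratio of each library to the mean of the UC3 libraries (0.1 CPM added), with UC3DDP libraries left of the UC3 libraries. The UC3DDP libraries lie at -2.93, -2.39 and -2.48 in cluster 4 and at 0.55, 0.79 and 0.69 in cluster 10.

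All 27 genes of cluster 4, between ZNF101 and ZNF254 (19.7 to 24.1 Mb, GRCh38) fell in UC3DDP, and in all 27 the UC3DDP libraries lay below the UC3 libraries. This cluster holds ZNF91, which represses SVA elements, and ZNF93, which binds LINE-1 elements. The summed level of its genes was 34.5, 47.1 and 42.2 CPM in UC3DDP and 289, 294 and 283 CPM in UC3, or 41.3 ± 6.38 CPM in UC3DDP against 289 ± 5.61 CPM in UC3 (SD, n = 3 each), a ratio of 0.143. The median log2 fold change was -2.74, with an interquartile range of -3.45 to -2.12. With ZNF257 at its bound it was -2.74 too, as that gene stays far below the median. In the adjusted fit 18 of the 27 were called lower, all 27 remained below 0 and the median was -1.22. Transcripts of this cluster had a median GC content of 36.8%, the lowest of the 10 clusters. No coding gene of the table other than members lay between its ends.

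Promoters stand for this cluster here: that of ZNF257, which was at 0 counts in UC3DDP, and that of ZNF714, the cluster's most abundant gene in UC3. They run from 250 bases before to 50 bases after the annotated start, come from RefSeq (GRCh38.p14), and every CG is in capitals. RefSeq gave such a promoter for 190 of the 214 members.
ZNF257 (chr19:22052234-22052533, + strand): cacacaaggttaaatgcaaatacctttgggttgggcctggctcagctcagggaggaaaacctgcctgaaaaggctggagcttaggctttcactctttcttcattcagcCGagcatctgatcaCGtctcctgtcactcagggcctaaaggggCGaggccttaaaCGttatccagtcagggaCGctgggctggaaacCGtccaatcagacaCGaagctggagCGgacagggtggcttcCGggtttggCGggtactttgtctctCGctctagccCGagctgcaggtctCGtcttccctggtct
ZNF714 (chr19:21081953-21082252, + strand): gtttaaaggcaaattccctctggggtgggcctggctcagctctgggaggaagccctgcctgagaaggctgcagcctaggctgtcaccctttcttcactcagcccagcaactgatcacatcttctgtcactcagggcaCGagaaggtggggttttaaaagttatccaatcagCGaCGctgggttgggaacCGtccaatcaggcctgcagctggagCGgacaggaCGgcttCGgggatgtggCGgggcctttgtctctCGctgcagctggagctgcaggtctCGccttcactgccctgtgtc
ZNF257 has 13 CG and ZNF714 has 10, against a median of 20 over the members with a promoter and 14 over all RefSeq promoters. Both also hold the letters CCAATCAG, 52 bases before the start in ZNF257 and 87 and 58 bases before it in ZNF714.

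ZNF257 (22052430 to 22091480, + strand) had 0, 0 and 0 counts in UC3DDP against 210, 222 and 253 counts in UC3. It was the only member without a count in a whole line. With 3 counts over the 3 UC3DDP libraries taken as the floor, it was 193-fold lower in UC3DDP, and edgeR's adjusted p was 4.9e-07. The exact 95% interval of its ratio of UC3 over UC3DDP started at 156. ZNF492 (22634324 to 22667671, + strand) had 1, 1 and 2 counts in UC3DDP and 148, 139 and 144 counts in UC3. With 4 counts in all of UC3DDP the ratio of UC3 over UC3DDP was 91.0 with an exact 95% interval of 35.3 to 335, which like the other such intervals covers counting error only. ZNF492 shared 24% of its 75-base words with transcripts of other genes, so reads could have been lost or exchanged there.

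ZNF714 (21082159 to 21125270, + strand) changed most among the genes of the cluster with at least 10 counts in every library. It had 0.593, 0.872 and 0.769 CPM in UC3DDP and 38.4, 41.0 and 40.1 CPM in UC3, a mean of 0.745 ± 0.141 CPM in UC3DDP against 39.8 ± 1.30 CPM in UC3 (SD, n = 3 each). Its log2 fold change was -5.73 (SE 0.125, edgeR adjusted p 8.7e-09) and -4.13 in the adjusted fit. It was the most abundant gene of the cluster in UC3 and below 1 CPM in every UC3DDP library.

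ZNF737 fell to 2, 2 and 6 counts in UC3DDP, against 99, 112 and 86 counts in UC3, a log2 fold change of -4.60 (SE 0.323). ZNF254, the last gene of the cluster, had 0.830, 1.05 and 1.36 CPM in UC3DDP and 18.9, 18.6 and 16.3 CPM in UC3 (-4.05, SE 0.160). Neither gene overlapped between the lines. ZNF430 had 0.890, 1.39 and 0.769 CPM in UC3DDP against 12.4, 11.7 and 12.7 CPM in UC3 (-3.58, SE 0.174). ZNF493, with 0.474, 0.988 and 0.829 CPM in UC3DDP and 8.82, 9.04 and 8.83 CPM in UC3 (-3.53, SE 0.188), completes the genes of this cluster among the 10 strongest falls. The adjusted p of these 4 genes was at most 1.7e-06 in edgeR, and their adjusted log2 fold changes were -3.09, -2.47, -2.29 and -1.92. The smallest change was at the outer end, in ZNF101, with 5.69, 6.16 and 6.22 CPM in UC3DDP and 13.6, 15.4 and 14.4 CPM in UC3 (-1.26, SE 0.099, and -1.0 in the adjusted fit).

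The letters CCAATCAG were looked for after these promoters had been read. On either strand they occurred in 25 of the 25 promoters of this cluster that RefSeq gave, in 17 of 20 in cluster 3 and in 3 of 4 in cluster 1. They occurred in 0 of 48 promoters of the distal cluster, in 48 of 190 members in all (25.3%) and in 1393 of 35116 RefSeq promoters (3.97%). Tested members with the letters had 34 of 47 genes called lower, 1 higher and a median log2 fold change of -1.93, and in the adjusted fit 22 were lower at a median of -0.80. Those without had 49 of 138 lower, 25 higher and a median of -0.36, which turned to 0.17 with 19 lower and 23 higher in the adjusted fit. Of the 48 promoters with the letters 25 lie in cluster 4, where all 27 genes were called lower. The letters were also read from promoters of that cluster, so the split is not a test of them. Over all members it mixes the letters with membership of that cluster. In cluster 3, with the letters in 17 of 20 promoters, 6 of 19 tested genes were called lower and the adjusted median was 0.01. The match is a description of shared sequence, and whether members of a cluster share it by descent with their neighbours was not tested.

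Cluster 10, between ZNF628 and ZNF446 (55.5 to 58.5 Mb) moved the other way. Of its 53 genes 52 were tested, of which 19 rose, 1 fell and the rest were not called. The UC3DDP libraries were all above UC3 at 32 genes, all below at 5, and overlapped with UC3 at 15. The summed level was 835, 907 and 874 CPM in UC3DDP and 528, 519 and 529 CPM in UC3, or 872 ± 35.9 CPM in UC3DDP against 526 ± 5.44 CPM in UC3 (SD, n = 3 each), a ratio of 1.66. In the adjusted fit 14 genes were called higher, 8 of them also called without adjustment, and 2 lower, with a median of 0.56. The median GC content was 46.3%. Coding genes that are not members inside the same interval had 10 of 15 tested genes higher and a median of 1.08 (5 higher and 0.63 in the adjusted fit).

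The promoters of the 2 genes with the strongest rise in this cluster and of the gene that fell are shown in the same way, since they frame the range of the cluster.
ZNF667 (chr19:56477296-56477595, - strand): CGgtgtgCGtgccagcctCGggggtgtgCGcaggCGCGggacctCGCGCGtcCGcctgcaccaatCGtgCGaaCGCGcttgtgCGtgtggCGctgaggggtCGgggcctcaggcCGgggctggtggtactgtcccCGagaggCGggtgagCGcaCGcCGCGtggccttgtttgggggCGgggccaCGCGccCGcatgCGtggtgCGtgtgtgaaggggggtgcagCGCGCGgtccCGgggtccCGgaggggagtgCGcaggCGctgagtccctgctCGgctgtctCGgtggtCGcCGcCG
ZNF772 (chr19:57477517-57477816, - strand): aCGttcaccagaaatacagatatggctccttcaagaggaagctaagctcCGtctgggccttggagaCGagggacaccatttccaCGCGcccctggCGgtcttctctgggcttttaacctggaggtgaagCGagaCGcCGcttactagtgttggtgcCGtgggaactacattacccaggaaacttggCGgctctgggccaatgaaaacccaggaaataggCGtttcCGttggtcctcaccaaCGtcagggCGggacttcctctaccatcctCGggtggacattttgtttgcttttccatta
ZNF606 (chr19:58002771-58003070, - strand): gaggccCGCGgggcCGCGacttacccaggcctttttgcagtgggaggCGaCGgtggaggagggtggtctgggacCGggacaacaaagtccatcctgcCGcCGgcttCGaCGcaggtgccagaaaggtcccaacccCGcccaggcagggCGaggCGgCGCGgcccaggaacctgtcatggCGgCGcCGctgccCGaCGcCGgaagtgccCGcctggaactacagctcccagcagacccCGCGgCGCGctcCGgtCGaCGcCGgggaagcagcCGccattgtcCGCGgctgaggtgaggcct
ZNF667 has 42 CG, the most of any member, ZNF772 has 16 and ZNF606 has 34. None of the 3 holds CCAATCAG. The RefSeq start behind a stretch can differ from the end of the gene in the count table: the stretches of ZNF667 and ZNF606 lie wholly inside the positions that the table gives for these genes.

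ZNF667 (56439325 to 56478065, - strand) had 316, 473 and 437 counts in UC3DDP and 0, 0 and 1 counts in UC3. In CPM these were 18.7, 27.5 and 25.9 in UC3DDP and 0, 0 and 0.048 in UC3. With a single count in UC3, the ratio of UC3DDP over UC3 was 1452 with an exact 95% interval of 260 to 57413. It was the member with the largest rise, and edgeR's adjusted p was 1.2e-07. ZNF772 (57466663 to 57477570, - strand) had 247, 336 and 254 counts in UC3DDP against 11, 6 and 8 counts in UC3. Its mean was 16.4 ± 2.71 CPM in UC3DDP and 0.413 ± 0.120 CPM in UC3 (SD, n = 3 each), with a log2 fold change of 5.29 (SE 0.220, edgeR adjusted p 1.6e-07) and 6.06 in the adjusted fit. Both genes were thus near 0 in the parental line.

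Other genes of the distal cluster rose by a smaller factor, and the 4 given here were above 1 CPM in every library of both lines. ZNF416 had 18.8, 16.9 and 16.7 CPM in UC3DDP and 3.72, 4.29 and 5.04 CPM in UC3 (log2 fold change 2.00, SE 0.124; 1.75 adjusted). ZNF530 had 18.8, 18.8 and 18.2 CPM in UC3DDP against 5.35, 5.37 and 5.47 CPM in UC3 (1.78, SE 0.086; 1.81 adjusted). Neither overlapped between the lines, and the adjustment did not lower the change of ZNF530. ZNF784 had 6.11, 4.30 and 5.21 CPM in UC3DDP and 1.73, 1.45 and 1.87 CPM in UC3 (1.62, SE 0.180; 0.79 adjusted). ZNF324 had 14.6, 12.2 and 12.3 CPM in UC3DDP and 3.77, 4.49 and 3.94 CPM in UC3 (1.68, SE 0.124; 1.07 adjusted), but 31% of its 75-base words are shared with other genes, so its value is uncertain. The edgeR adjusted p of these 4 genes was at most 2.8e-05.

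The most abundant genes of the cluster had mixed changes. ZNF274, which binds the 3' ends of ZNF genes and recruits TRIM28 and SETDB1 there, had 74.1, 74.1 and 72.3 CPM in UC3DDP and 30.4, 29.0 and 27.0 CPM in UC3, a log2 fold change of 1.35 (SE 0.075, edgeR adjusted p 5.5e-07). ZNF787 had 65.5, 60.6 and 62.1 CPM in UC3DDP and 21.8, 20.6 and 21.3 CPM in UC3 (1.57, SE 0.073). Both rose, but neither was called in the adjusted fit (0.94 and 0.69). ZNF264 had 46.3, 54.9 and 49.96 CPM in UC3DDP and 33.3, 29.2 and 31.6 CPM in UC3 (0.68, SE 0.089), under the fold limit, and was called higher in the adjusted fit (1.72). ZNF587, known for repressing HERV-K elements, had 43.8, 50.4 and 48.1 CPM in UC3DDP against 48.5, 49.0 and 48.7 CPM in UC3 (-0.04, SE 0.076, edgeR adjusted p 0.648), and the lines overlapped. Many of its reads could belong to its near copy ZNF417.

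ZNF606 (57977076 to 58003349, - strand) was the 1 gene of the distal cluster that fell. It had 1, 0 and 0 counts in UC3DDP and 16, 14 and 25 counts in UC3, a ratio of UC3 over UC3DDP of 46.4 with an exact 95% interval of 7.99 to 1867 (edgeR adjusted p 8.6e-05). It was called lower in the adjusted fit as well. Its depth in UC3 was low, so the size of the fall is known only within that interval.

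**Figure D5:**
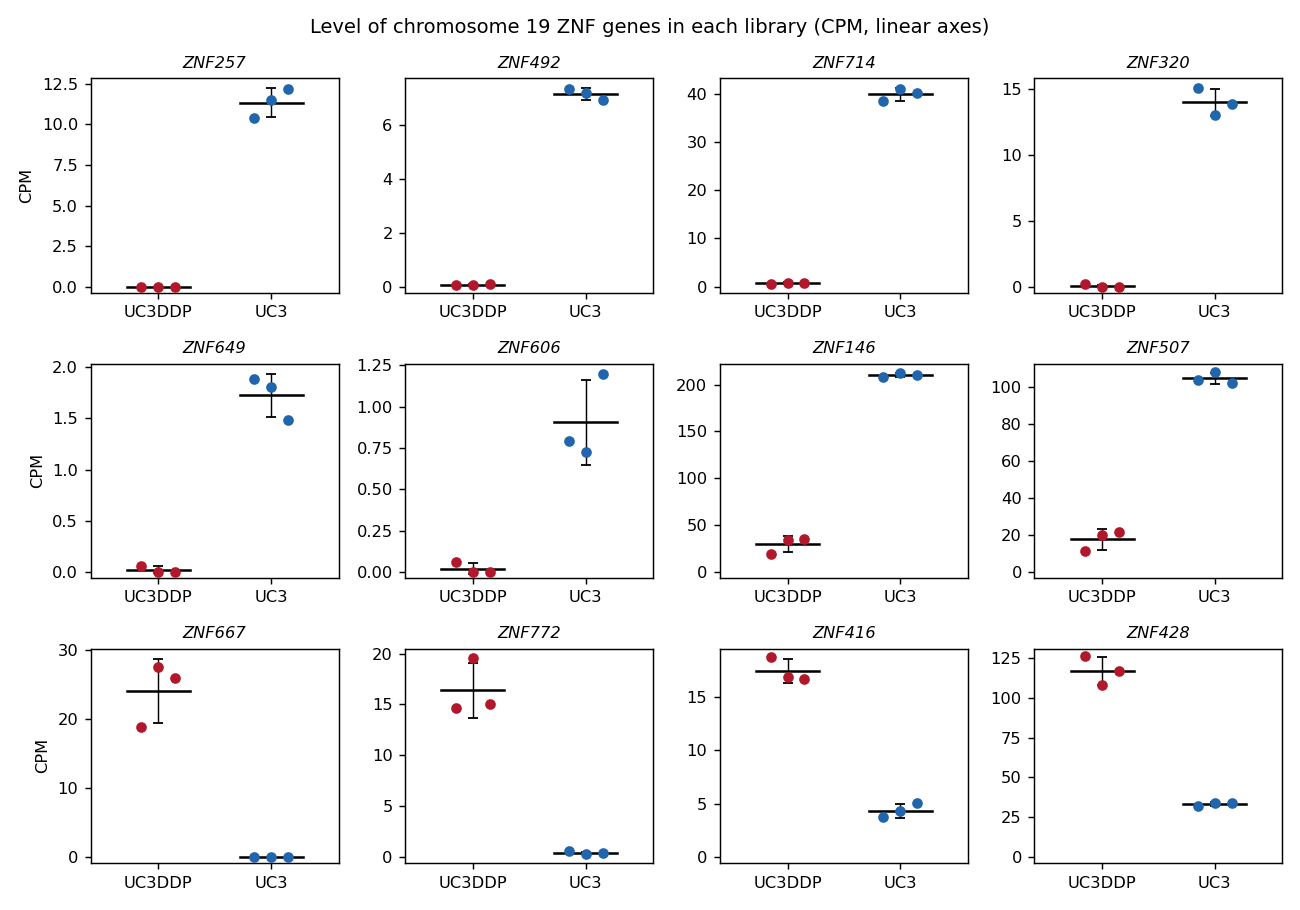
CPM of 12 members in each library on linear axes, with points for libraries, lines for the mean and whiskers for the SD (n = 3 per line), UC3DDP left of UC3. ZNF257 is at 0 in all UC3DDP libraries, ZNF667 has 1 count in UC3, and ZNF146 and ZNF507 stay above 10 CPM in UC3DDP.

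Cluster 9, between ZNF175 and ZNF331 (51.6 to 53.6 Mb) had 24 of 32 genes called lower, 0 called higher in edgeR and 0 in DESeq2 (2 genes positive at an unadjusted p under 0.05), and a median of -1.29. In the adjusted fit 10 were lower and 2 higher, with a median of -0.48. ZNF331, at its distal end, is an imprinted gene. The summed level was 117, 175 and 156 CPM in UC3DDP and 433, 416 and 424 CPM in UC3. The UC3DDP libraries were all below UC3 at 28 of the 32 genes. For counts at an unadjusted p under 0.05 (edgeR), here and in the clusters below, the background was 6204 positive and 6125 negative of all 15120 tested genes.

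Here too single genes were almost without reads in UC3DDP, and the promoter of the strongest, ZNF320, is given for comparison with those above.
ZNF320 (chr19:52897645-52897944, - strand): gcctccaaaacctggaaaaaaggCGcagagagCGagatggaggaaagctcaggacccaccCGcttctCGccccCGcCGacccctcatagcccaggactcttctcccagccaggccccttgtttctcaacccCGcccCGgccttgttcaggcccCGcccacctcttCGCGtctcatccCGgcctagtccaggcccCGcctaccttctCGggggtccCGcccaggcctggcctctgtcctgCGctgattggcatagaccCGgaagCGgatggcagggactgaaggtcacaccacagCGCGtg
It has 20 CG, and CCAATCAG is found on the opposite strand 9 bases before the start. ZNF320 (52860851 to 52897693, - strand) had 3, 0 and 0 counts in UC3DDP and 303, 252 and 288 counts in UC3, a ratio of UC3 over UC3DDP of 237 with an exact 95% interval of 80.9 to 1153. ZNF649 had 1, 0 and 0 counts in UC3DDP and 38, 35 and 31 counts in UC3, a ratio of 87.8 (interval 15.4 to 3500). ZNF577, which overlaps ZNF649 at their ends, had 2, 0 and 0 counts in UC3DDP and 51, 34 and 37 counts in UC3, a ratio of 51.5 (interval 13.95 to 430.0). All 3 were called lower by edgeR in both fits, with adjusted p of 2.5e-07, 5.4e-06 and 1.7e-05 before adjustment.

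ZNF83 was the most abundant gene of that cluster. It had 9.13, 15.3 and 12.4 CPM in UC3DDP and 71.1, 64.1 and 68.7 CPM in UC3, a log2 fold change of -2.46 (SE 0.154, edgeR adjusted p 9.8e-07) and -1.81 in the adjusted fit. ZNF665 had the highest log2 fold change of the cluster, with 3.20, 2.96 and 3.79 CPM in UC3DDP and 1.83, 1.91 and 2.06 CPM in UC3 (0.77, SE 0.156). It was called higher only in the adjusted fit (1.34).

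Cluster 6, between ZNF565 and ZNF573 (36.2 to 37.8 Mb) had 16 of 24 tested genes called lower and none of them called higher, with a median of -1.39 and 6 lower at a median of -0.48 in the adjusted fit. edgeR and DESeq2 both called 0 genes higher there, and 0 were positive at an unadjusted p under 0.05. The summed level was 122, 181 and 168 CPM in UC3DDP and 513, 526 and 509 CPM in UC3. Its most abundant gene was ZNF146 (OZF), which encodes a protein that consists almost wholly of zinc fingers. It had 19.5, 33.7 and 34.9 CPM in UC3DDP and 209, 213 and 210 CPM in UC3, a log2 fold change of -2.84 (SE 0.189, edgeR adjusted p 1.3e-06) and -2.12 in the adjusted fit. At the other end of the range was ZNF850, with 4.74, 6.45 and 5.27 CPM in UC3DDP and 5.35, 6.20 and 5.04 CPM in UC3 (-0.01, SE 0.148, edgeR adjusted p 0.961), where the lines overlapped.

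The 3 genes of cluster 7 (40.0 to 40.1 Mb) all fell, with a median of -2.46, and 1 was called lower in the adjusted fit. ZNF780A had 1.96, 5.40 and 4.38 CPM in UC3DDP and 32.4, 31.2 and 30.7 CPM in UC3 (-3.001, SE 0.230; -1.78 adjusted). ZNF546 had 1.008, 2.09 and 1.83 CPM in UC3DDP against 6.29, 6.46 and 6.29 CPM in UC3 (-1.94, SE 0.202; -0.51 adjusted). The 5 genes of cluster 5 (34.7 to 35.0 Mb) included both directions, with 2 lower, 1 higher and a median of -0.69 (2 lower and a median of -0.27 in the adjusted fit). ZNF181 fell to 0.830, 1.92 and 1.54 CPM in UC3DDP, against 11.0, 8.94 and 10.1 CPM in UC3 (-2.80, SE 0.218). ZNF792 rose to 8.36, 7.67 and 7.64 CPM in UC3DDP, against 2.92, 3.62 and 3.41 CPM in UC3 (1.25, SE 0.123; 0.90 adjusted). The edgeR adjusted p was at most 1.8e-05 for these 4 genes.

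In cluster 8 (43.5 to 45.1 Mb), which holds ZNF224, a repressor of aldolase A, 9 of 23 tested genes fell and 3 rose, with a median of -0.49. The balance turned in the adjusted fit, with 4 lower, 5 higher and a median of 0.10. The summed level was 297, 336 and 330 CPM in UC3DDP and 315, 305 and 304 CPM in UC3, which overlapped. Its most abundant gene, ZNF428, rose to 126, 108 and 117 CPM in UC3DDP, against 32.0, 34.0 and 33.8 CPM in UC3 (1.81, SE 0.083, edgeR adjusted p 2.4e-07; 1.03 adjusted). ZNF576 had 24.3, 22.7 and 25.1 CPM in UC3DDP and 7.29, 7.49 and 8.30 CPM in UC3 (1.64, SE 0.091; 1.21 adjusted). ZNF296, known in mouse pluripotent cells, had 4.51, 2.91 and 2.78 CPM in UC3DDP and 1.19, 1.03 and 1.2 CPM in UC3 (1.57, SE 0.235; 0.72 adjusted). These were the 3 genes that rose. ZNF233 was lowest, with 0.178, 0.349 and 0.237 CPM in UC3DDP and 1.88, 2.58 and 2.16 CPM in UC3 (-3.08, SE 0.289; -2.63 adjusted).

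Cluster 2 (7.07 to 9.79 Mb) had 2 genes lower and 2 higher of 13, and a median of 0.34. In the adjusted fit 4 were called higher and the median was 0.64, while the count of genes called lower was 0 (4 negative at an unadjusted p under 0.05 before the adjustment, and 2 lower in DESeq2). Its median relative to UC3 was -0.10 in UC3DDP replicate 1, against 0.46 and 0.28 in replicates 2 and 3, so the libraries of UC3DDP differed in direction. ZNF358 rose to 12.6, 11.5 and 12.1 CPM in UC3DDP, against 2.87, 3.00 and 2.50 CPM in UC3 (2.11, SE 0.115, edgeR adjusted p 5.3e-07; 1.25 adjusted). ZNF317 had 72.6, 72.1 and 65.1 CPM in UC3DDP and 32.7, 30.2 and 32.8 CPM in UC3 (1.13, SE 0.079; 0.85 adjusted). ZNF121 had 9.61, 18.9 and 18.1 CPM in UC3DDP and 42.1, 41.6 and 46.5 CPM in UC3 (-1.48, SE 0.203; -0.42 adjusted). The fall of ZNF121 was thus largest in UC3DDP replicate 1.

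Cluster 3 (11.5 to 12.6 Mb) had 6 of 19 tested genes lower and a median of -0.74, which was 0.01 with 1 gene lower in the adjusted fit. No gene there was called higher by edgeR or by DESeq2 (0 in each), and 2 were positive at an unadjusted p under 0.05. ZNF844 was lowest, with 4, 2 and 2 counts in UC3DDP and 12, 20 and 23 counts in UC3 (-2.49, SE 0.434), and 45% of its 75-base words occur in other genes. ZNF653 had the highest log2 fold change, with 1.90, 1.39 and 1.95 CPM in UC3DDP and 0.991, 0.878 and 0.960 CPM in UC3 (0.88; 0.05 adjusted), and was not called.

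Of the 4 genes of cluster 1 (2.82 to 2.94 Mb) 2 were lower in both fits. ZNF555 had 2.55, 3.78 and 3.61 CPM in UC3DDP and 10.7, 11.6 and 9.89 CPM in UC3 (-1.69, SE 0.151; -1.07 adjusted). ZNF554 had 3.86, 3.54 and 4.62 CPM in UC3DDP and 2.58, 1.55 and 2.16 CPM in UC3 (0.93, SE 0.198), which did not pass the fold limit.

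Among the 7 scattered genes 3 of 6 tested fell and 1 rose (3 lower in the adjusted fit). ZNF507 fell to 11.21, 19.9 and 21.6 CPM in UC3DDP, against 104, 108 and 102 CPM in UC3 (-2.57, SE 0.196, edgeR adjusted p 2.7e-06; -1.32 adjusted), with UC3DDP replicate 1 lowest. ZNF473, a component of the machinery that processes histone pre-mRNA, had 34.4, 40.0 and 35.2 CPM in UC3DDP and 41.8, 44.2 and 43.6 CPM in UC3 (-0.24, SE 0.081), which is a small difference without overlap.

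Per length, ZNF428 had the highest level of the most abundant members in UC3DDP, at 100.7 CPM per kb of exon in UC3DDP and 28.6 CPM per kb in UC3. ZNF146 had the highest in UC3, at 8.78 CPM per kb in UC3DDP and 62.9 CPM per kb in UC3. ZNF787 (32.3 CPM per kb in UC3DDP, 10.9 in UC3), ZNF274 (26.2 and 10.3 in the same order) and ZNF317 (17.2 and 7.86) stood higher in UC3DDP, and ZNF83 (4.51 and 24.9) and ZNF507 (2.28 and 13.5) stood lower. ZNF473 had 7.87 CPM per kb in UC3DDP and 9.30 in UC3, and ZNF587 had 6.89 in UC3DDP and 7.08 in UC3. The first place by level per length thus differed between the lines.

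The members also differed by what they encode. The letters of a KRAB box were found in the longest coding sequence of 182 members and not in 32. Of those with the letters 87 of 179 tested genes fell, 14 rose and the median log2 fold change was -0.97 (42 lower, 21 higher and -0.14 in the adjusted fit). Of those without, 8 of 29 fell, 12 rose and the median was 0.88 (7 lower, 4 higher and 0.18 in the adjusted fit). The median transcript GC was 41.9% with and 59.9% without the letters, so KRAB box and GC cannot be told apart in the unadjusted fit. In the pericentromeric cluster 25 genes had the letters, all of them lower (16 in the adjusted fit), and the 2 without were ZNF714 and ZNF492. In the distal cluster the genes with the letters had 12 higher and 1 lower of 40, with a median of 0.48 (13 higher, 1 lower and 0.69 in the adjusted fit). Those without had 7 higher and 0 lower of 12 tested, with a median of 1.07 (1 higher, 1 lower and 0.42 in the adjusted fit). The order of the 2 medians thus differed between the fits. The SCAN pattern, a dimerization domain, was found in ZNF444, ZNF274 and ZNF446, and all 3 rose, but none of these calls was kept in the adjusted fit.

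The number of fingers ran from 1 to 31, with ZNF91 at the top. Members with 16 to 31 fingers had 27 of 49 lower, 3 higher and a median of -1.26 (13 lower, 5 higher and -0.37 in the adjusted fit). Those with 1 to 10 had 23 of 69 lower, 15 higher and a median of -0.38, which turned to 0.17 with 13 lower and 9 higher in the adjusted fit. Split by the GC of their transcripts, those with 33.9% to 39.8% had 43 of 53 lower, at a median of -1.94 (18 lower, 1 higher and -0.60 in the adjusted fit). Those with 45.8% to 70.9% had 5 of 51 lower and 23 higher, at a median of 0.93 (5 lower, 8 higher and 0.42 in the adjusted fit). By promoter, the members with 2 to 15 CG had 29 of 48 lower, 4 higher and a median of -1.44 (15 lower, 4 higher and -0.56 in the adjusted fit). Those with 26 to 42 CG had 18 of 46 lower, 11 higher and a median of -0.13, which turned to 0.22 with 10 lower and 7 higher in the adjusted fit. These splits overlap with the clusters and with each other, and were not tested.

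The genes for the corepressor pathway on which KRAB proteins act were all tested (29 of 29). Of these 8 fell: ATF7IP, CBX3, CBX5, TASOR, MPHOSPH8, PPHLN1, SMARCAD1 and HDAC2. That is 27.6% of the list, near the 23.1% of all tested genes called lower, and in the adjusted fit it was 6.90% against 13.2%. edgeR and DESeq2 both called 0 of the list higher. At an unadjusted p under 0.05 in edgeR 13 of the list were lower and 11 higher, against 6125 and 6204 of all 15120 tested genes. In the adjusted fit 2 were lower, TASOR and MPHOSPH8, which belong to the HUSH silencing complex, and 1 was higher, RBBP4 (1.11). TASOR had 28.7, 49.97 and 42.7 CPM in UC3DDP and 216, 211 and 202 CPM in UC3 (-2.37; -1.04 adjusted). TRIM28, the corepressor that KRAB boxes bind, had 671, 582 and 583 CPM in UC3DDP and 298, 312 and 319 CPM in UC3 (0.98, edgeR adjusted p 3.1e-06; 0.20 adjusted), just under the fold limit. The methyltransferase SETDB1 had 40.7, 43.4 and 38.6 CPM in UC3DDP and 50.3, 50.05 and 55.2 CPM in UC3 (-0.34; -0.65 adjusted), and DNMT1, the maintenance DNA methyltransferase, had 455, 435 and 452 CPM in UC3DDP and 224, 225 and 230 CPM in UC3 (0.98; 0.50 adjusted).

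The other 6 members were not tested for low counts. ZNF439 had 4, 0 and 0 counts in UC3DDP and 8, 3 and 9 counts in UC3, a ratio of UC3DDP over UC3 of 0.237 with an exact 95% interval of 0.0589 to 0.707. ZNF763 had 1, 0 and 1 counts in UC3DDP against 2, 4 and 5 in UC3, and ZNF568 had 1, 0 and 2 against 5, 4 and 3. ZNF536 had 7, 10 and 12 counts in UC3DDP against 7, 9 and 6 in UC3, ZNF575 had 2, 6 and 11 against 4, 7 and 2, and ZNF497 had 10, 15 and 9 against 7, 4 and 11. The raw counts of the last 3, not scaled to library size, overlapped between the lines. Of all members, 84 overlap another gene of the table and 15 share more than 20% of their 75-base words with other genes, and since the sources used here do not state the strand setting of the counting, reads of overlapping genes cannot be told apart.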

How the data were processed

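Total RNA of UC3DDP and UC3 cells (3 libraries each) was sequenced as paired ends. Per the study's methods reads were trimmed with Fastp, aligned with HISAT2 to GRCh38 and counted with featureCounts. The deposited table gave raw read counts per gene, with gene type, position and exon length (bases, used for levels per length and in the adjusted fit). Every gene had at least 10 counts in total. The authors also deposited their own comparison as log2 fold changes, ratios of means and p-values with adjusted p-values, which were not used.

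Counts of all 18936 genes were fitted with edgeR 4.0.16 (R 4.3.3): filterByExpr, TMM, quasi-likelihood test of UC3DDP against UC3, Benjamini-Hochberg adjustment over 15120 genes. The adjusted fit added loess offsets (span 0.3) for the GC content of each gene's longest GENCODE 44 transcript and for its exon length. Totals were 16757610 to 20803970 counts per library. No pair of replicates agreed within counting noise, so each counted once. Transcript GC, coding sequences, fingers (C2H2 spacing) and KRAB and SCAN letter patterns came from GENCODE 44, and promoters came from RefSeq.

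Alternatives were DESeq2 1.42.0, its size factors, library totals, no filter, no fold limit, protein-coding genes alone, a replicate block, each library left out and clusters with a gap of 0.5 Mb. The members and lists were chosen with earlier results of these data known. Named members were the 10 most abundant, the 10 strongest falls and rises with at least 1 CPM in the higher line, the highest and lowest log2 fold change of each cluster, up to 5 per direction called in both fits, and those at 0 counts in one line; the corepressor list was also named. The motif was chosen after the promoters had been read, and other genes were named only for background.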

Additional observations from a re-analysis of the deposited data

How the results depend on the processing

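The adjustment for GC content and length moved the count of members called lower and the medians. Members called lower were 49 under it, 50 with the replicate block added and 45 without UC3DDP replicate 1, against 95, and their median was -0.094, -0.10 and -0.051. Corepressor genes called lower were 2, 2 and 1 and those called higher 1, 1 and 1. The median of cluster 3 changed sign to 0.010 with the adjustment and to 0.070 with it and without UC3DDP replicate 1, and that of cluster 8 changed sign to 0.097, to 0.083 with the block and to 0.21 without UC3DDP replicate 1. ZNF850 was at 0.89, 0.89 and 0.88 in these settings and ZNF587 at 0.37, 0.37 and 0.36. Leaving out a library gave 83 to 98 members lower, 25 to 27 higher, a median of -0.88 to -0.64, and 7 to 8 corepressor genes lower and 0 to 1 higher. ZNF850 was at 0.067 without UC3 replicate 2, 0.089 without UC3DDP replicate 1 (its highest), -0.15 without UC3DDP replicate 2 (its lowest) and 0.026 without UC3DDP replicate 3, and ZNF587 at 0.017 without UC3DDP replicate 1. With no fold limit 126 members were lower and 51 higher. The replicate block gave 96 lower and 26 higher. Same-numbered libraries did not deviate together (correlations -0.047, -0.014 and -0.009), but 3 libraries per line are too few to decide whether the numbers mark pairs. DESeq2, its size factors, library totals, no filter and coding genes alone gave 95 to 97 lower and 26 higher, and each kept direction and call of all 43 named members. The adjustment kept 31 of the 43, and 8 lost their call, 2 gained one and 2 changed sign. All 27 genes of cluster 4 were lower in every setting without the adjustment, and 18, 18 and 19 with it. With a gap of 0.5 Mb there were 12 clusters, 9 of them with a negative median. The cause of these changes was not tested. Counts under about 10 per library limit what can be said of the genes near 0, whose ratios carry wide intervals.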

Other observations

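Other zinc finger genes of chromosome 19, with symbols that do not start with ZNF, were looked up after the values above had been seen. ZFP14, ZFP82 and ZFP30 lie in the cluster at 36.2 to 37.8 Mb and all fell in UC3DDP by edgeR's test, with log2 fold changes of -2.14, -1.59 and -2.05, but none was called in the adjusted fit. In the distal cluster ZSCAN22 rose (1.06), ZFP28 was called higher only in the adjusted fit (0.93 before it, 1.45 after it) and ZSCAN5A was at 0.35. Outside the clusters ZBTB45 rose (1.04), and ZBTB7A (0.71), ZFP36 (0.10) and MZF1 (0.05) were not called.

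Non-coding genes and pseudogenes between the ends of the pericentromeric cluster were also looked up after seeing the data. There were 19, of which 15 were tested and 6 fell, with a median log2 fold change of -0.77, and 5 were called lower in the adjusted fit. The pseudogene ZNF826P had 1, 0 and 0 counts in UC3DDP and 92, 112 and 109 counts in UC3, and ZNF849P had 0, 0 and 0 counts in UC3DDP and 29, 30 and 31 counts in UC3. The non-coding LINC01224 had 0, 0 and 0 counts in UC3DDP against 22, 27 and 29 counts in UC3. RPSAP58, a ribosomal protein pseudogene in the same interval, had 1663, 1219 and 1235 counts in UC3DDP and 1307, 1395 and 1310 counts in UC3 (0.28), and was not called.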
